A study of Mus musculus with 10 samples.

Results

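Tcf4 and Foxn2 encode transcription factors, and the data described here are the DNA methylation levels of lymph node stromal cells at the differentially methylated regions (DMRs) for which either gene was the nearest. A DMR is a stretch of neighbouring CpGs whose methylation differed between 2 groups in the authors' search. All DMRs with Tcf4 or Foxn2 as nearest gene name were taken from the 4 deposited DMR tables, which gave 4 of 2132 DMRs, 3 at Tcf4 and 1 at Foxn2. All 4 came from the comparisons of lymph node location, 3 in the table of specific pathogen-free (SPF) mice and 1 in that of germ-free (GF) mice, and neither comparison of housing held any. Overlapping DMRs merged into 3 of 1602 regions, which contained 42 of the 24182 distinct CpGs with deposited values. The Foxn2 region was less methylated and both Tcf4 regions were more methylated in mesenteric lymph nodes (mLN) than in peripheral lymph nodes (pLN). The members were thus chosen by their smoothed location difference in the SPF or the GF libraries, so the size of this difference in the groups used for the call is given as a description, with no test.

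Non-endothelial stromal cells, sorted as CD45- CD31- Ter119- Pdpn+ cells, came from BALB/c mice, without transgene or treatment, and were analysed by whole-genome bisulfite sequencing. This assay gives, for each CpG, the share of reads that carry a methylated cytosine. There were 10 libraries, 5 of gut-draining mLN (3 SPF and 2 GF) and 5 of skin-draining pLN (3 SPF and 2 GF). The SPF mice were 7 to 12 weeks old and the GF mice 6 to 10 weeks old. GF mice carry no microorganisms, whereas SPF mice carry a microbiota free of listed pathogens. By the paper, mice were female unless stated otherwise. GF mice originated from a caesarean derivation outside the institution that bred the SPF mice, and lived in isolators at either place. Facility and housing can therefore not be told apart here. The paper gives its SPF BALB/c mice a separate line name, so a difference of line cannot be told apart from housing either. The authors left out 1 mLN GF and 1 pLN GF replicate as outliers, and these were not analysed here. The labels do not state which libraries came from separate animals, so all p-values measure only the spread between these libraries.

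DNA methylation is the addition of a methyl group to cytosine, mostly at CpG dinucleotides, and low methylation at promoters and enhancers commonly accompanies accessible regulatory DNA. Tcf4, also called E2-2, is a class I basic helix-loop-helix (bHLH) factor, an E protein that pairs with tissue-restricted bHLH factors such as Twist1 or Tcf21 on E-box sequences and is held off DNA by Id proteins. It is a different gene from Tcf7l2, the Wnt pathway factor that shares the alias TCF4. Foxn2 belongs to the forkhead family, whose members bind DNA through a winged-helix domain. The sorted cells were a mixture of fibroblastic reticular cells and CD34+ stromal cells. A level between 0 and 100% can therefore reflect a share of cells or a partial methylation within cells, which cannot be told apart in such bulk libraries.

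Over all CpGs of the deposited table, the mean methylation of the libraries ranged from 48.2% to 52.2%, and each library had values for 99.6% to 99.9% of them. All 42 CpGs described here had a value in all 10 libraries. The read number behind each value was not used here, so no counting interval is given, and levels at single CpGs were coarse. None of the 10 cell type markers looked up, such as Pdpn, Pdgfra, Ccl19 and Cd34 for the sorted cells and Ptprc and Pecam1 for excluded cells, was the nearest gene of a DMR. The identity of the sorted cells was therefore not checked from these tables.

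The Foxn2 DMR spanned chr17:88435474-88436202 (GRCm38), 729 bp with 18 CpGs in the CpG table, all of which were used, while the authors counted 16. It lay in no annotated gene, 4507 bp before the transcription start site of the Foxn2 transcript ENSMUST00000112238 by the deposited distance, on the same strand as the printed sequence (plus strand, 5′ to 3′). The first 300 bases are shown because they hold CpGs 1 to 11, among them those with the largest location differences. The last 84 bases are shown because they hold CpGs 15 to 18, which differed less on the mean of 5 libraries per node. CpGs are in capitals. Both sequences were read from the GRCm38 reference, and CpGs were numbered from 1 at the 5′ end.
Foxn2 DMR, first 300 bases: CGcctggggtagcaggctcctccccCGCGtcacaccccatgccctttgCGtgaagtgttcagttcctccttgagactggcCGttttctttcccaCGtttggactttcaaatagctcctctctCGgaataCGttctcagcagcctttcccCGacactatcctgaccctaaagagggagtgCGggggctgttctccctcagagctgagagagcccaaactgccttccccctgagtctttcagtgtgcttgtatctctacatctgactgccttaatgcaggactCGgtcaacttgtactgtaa
Foxn2 DMR, last 4 CpGs: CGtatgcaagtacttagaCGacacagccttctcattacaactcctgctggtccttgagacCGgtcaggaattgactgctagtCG

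The GC content of the Foxn2 region was 51.5%, above that of 83.4% of the 806 SPF location DMRs, whose median was 46.2%. Its CpG density was 2.47 per 100 bp, against a median of 2.00. In the first 300 bases, the general E-box CANNTG occurred once, at base 257, away from any CpG, compared with a match in 79.5% of the windows formed by the first 300 bases of each of the 806 SPF location DMRs. The specific E-box CACCTG and the forkhead core GTAAACA had no match on either strand, while 18.4% and 3.85% of the windows held them. GACGC, a shorter alternative forkhead sequence, occurred once, on the minus strand at base 27, covering CpG 3, and was present in 10.05% of the windows. These matches describe the letters of the window only.

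Across the Foxn2 DMR, mean methylation was 40.0%, 44.3% and 38.0% in mLN SPF libraries 1, 2 and 3, and 39.7% and 41.4% in mLN GF libraries 1 and 2. In pLN it was 72.6%, 65.5% and 63.8% in SPF libraries 1, 2 and 3, and 58.3% and 73.9% in GF libraries 1 and 2. All 5 mLN libraries lay below all 5 pLN libraries, with 14.01 points between the highest mLN and the lowest pLN library. Such a separation was found in 88.8% of all SPF location DMRs, so it does not set this DMR apart. In SPF mice the group means were 40.8% ± 3.19 for mLN and 67.3% ± 4.67 for pLN (SD, n = 3 each), and in GF mice 40.5% ± 1.21 and 66.1% ± 11.1 (SD, n = 2 each). The location difference, mLN minus pLN, was -26.5 points in SPF, where it served for the call, and -25.6 points in GF.

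**Figure D1:**
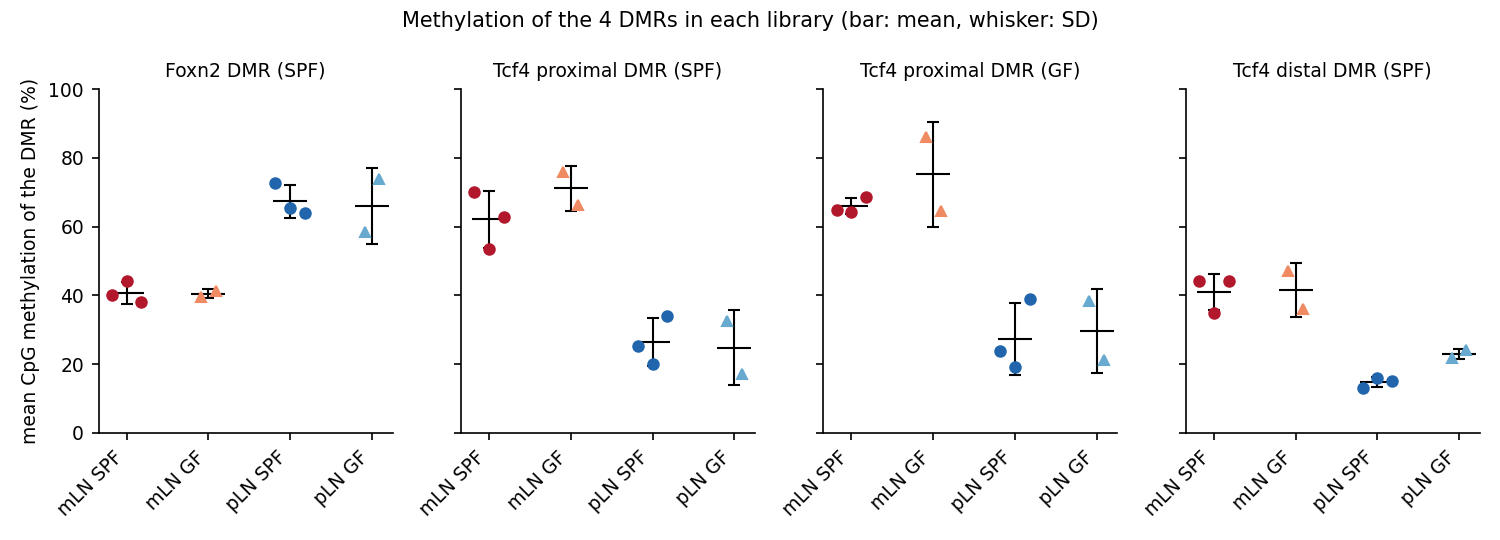
Mean CpG methylation (%, y axis from 0 to 100) of the 4 DMRs in each library, by lymph node and housing. Points are libraries, horizontal bars group means and whiskers SD. The Foxn2 DMR had its 5 mLN libraries between 38.0% and 44.3% and its 5 pLN libraries between 58.3% and 73.9%, and the order was the opposite in the 3 Tcf4 DMRs.

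The GF libraries had no part in calling the Foxn2 DMR, which was absent from the GF location table. In these 4 libraries the difference of -25.6 ± 6.05 points (SE, 95% interval -40.5 to -10.7) passed the limma test fitted over all 806 SPF location DMRs (adjusted p = 0.00755). Of these DMRs, 89.0% passed in the GF libraries, and 31.9% had a smaller difference than the Foxn2 DMR, the median size being 30.7 points. With 2 libraries against 2, an exact two-sided permutation test cannot give a p below 0.333, and gave this value. With the median instead of the mean over CpGs, the difference in GF was -39.0 points, and the call did not change.

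The difference was not spread evenly over the 18 CpGs. On the mean of 5 libraries per node, 17 CpGs were lower in mLN, beside 93.5% of all CpGs in SPF location DMRs with lower methylation in mLN. At 15 CpGs the difference was negative in both SPF and GF, the exceptions being CpGs 15, 17 and 18. The sign in SPF largely followed from the call, so this count is a description. CpG 4 had the largest difference, -56.9 points, with 14.7% in mLN and 71.7% in pLN. CpG 8 was unmethylated in all 5 mLN libraries, at 0%, and had 50% in each of the 3 pLN SPF libraries and 20% and 100% in the pLN GF libraries. Its neighbour CpG 7, 7 bases upstream, ranged from 12.5% to 28.6% in mLN and from 50% to 75.0% in pLN.

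CpGs 7 and 8 were the only 2 of 18 at which no mLN library overlapped a pLN library, compared with 39.3% of such CpGs over all SPF location DMRs less methylated in mLN. Overlap at the other 16 came from single libraries at several of them: at CpG 4, for example, pLN GF library 1 had 25% while the other 4 pLN libraries had 66.7% to 100%. In the GF libraries alone, 1 of the 18 CpGs, CpG 7, passed the limma test over all CpGs of SPF location DMRs (-41.6 ± 6.37 points, adjusted p = 0.0453), beside 16.4% of all CpGs tested. No CpG of the whole list passed once any GF library was left out, including CpG 7.

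Seen along the DNA, the 14 leading CpGs within 416 bp carried the difference. Their mean was 29.0% ± 5.14 for mLN and 62.9% ± 6.54 for pLN in SPF mice (SD, n = 3 each), and 28.9% ± 3.28 and 59.7% ± 12.1 in GF mice (SD, n = 2 each). The 4 trailing CpGs, which follow after a gap of 231 bp, had 81.9% ± 4.39 for mLN and 82.7% ± 4.12 for pLN in SPF mice, and 81.1% ± 6.04 and 88.6% ± 7.22 in GF mice. The library means over these 4 CpGs overlapped between the nodes, at 76.9% to 85.8% in mLN and 80.2% to 93.8% in pLN. This division was made after the values were seen and carries no test. By level, 6 of the 18 CpGs were below 20% in mLN and none in pLN, whereas 2 were above 80% in mLN and 6 in pLN.

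**Figure D2:**
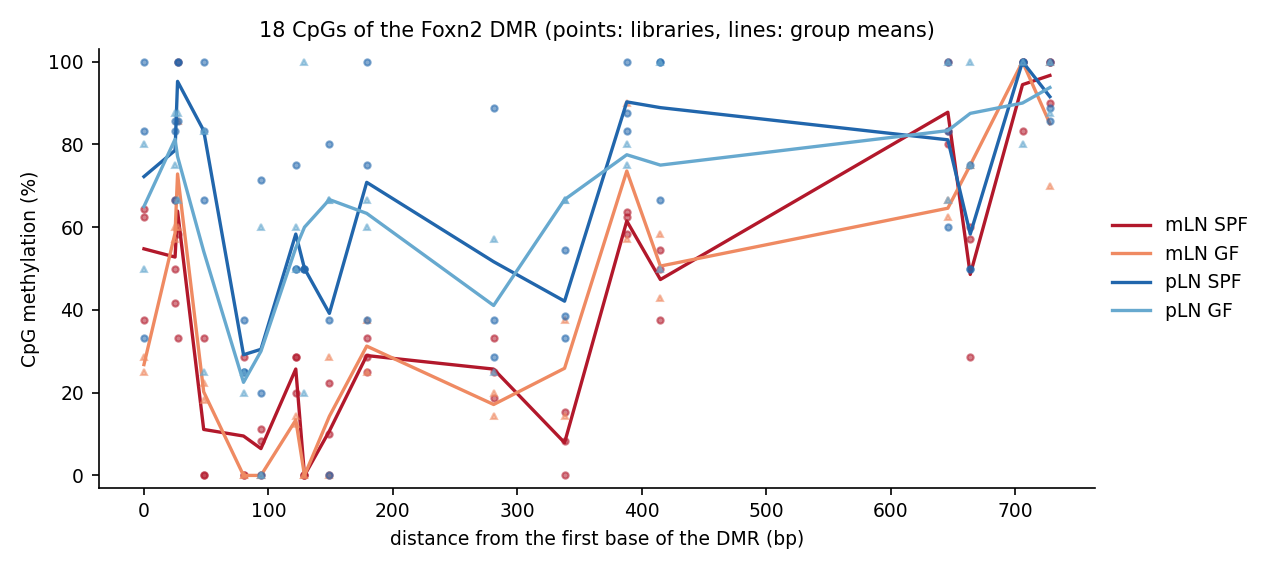
Methylation (%) of the 18 CpGs of the Foxn2 DMR against the distance from its first base (bp). Small points are libraries, lines connect the means of the 4 groups. The mLN and pLN lines are mostly apart over the 14 leading CpGs and mostly closer over the last 4. Averaged over these 4 CpGs, the group means were 81.1% to 88.6%. At single CpGs among them the lines vary, with 48.6% in mLN SPF at CpG 16. At CpG 15 in GF they are apart, with 64.6% in mLN and 83.3% in pLN.

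The Tcf4 DMRs lay inside the Tcf4 gene (chr18:69343356-69689079, GRCm38, plus strand), which is 345724 bp long and has 62 annotated transcripts, 48 of which span both regions. The proximal region was chr18:69594220-69594741, 522 bp with 10 CpGs, and was called in both housing conditions. The SPF call covered all of it, and the GF call covered chr18:69594440-69594741, 302 bp with 7 of these CpGs, all used here, of which the authors counted 5. The distal region, chr18:69595133-69596037, 905 bp with 14 CpGs, was called in SPF only. The regions were 391 bases apart, and together spanned 1818 bp. They started 794 bp and 1707 bp downstream of the transcription start site of ENSMUST00000114977, the nearest by the deposited annotation, within its first intron, which ends before exon 2 at position 69633577. In the GENCODE annotation both regions also overlapped the single exon of ENSMUST00000201892, a retained-intron transcript. The first 3 CpGs of the proximal region lay in an untranslated exon (69594182 to 69594408) of the protein-coding transcript ENSMUST00000201964, which starts 38 bp upstream of the region. The Tcf4 regions thus lay beside internal transcript starts, downstream of the first base of the gene.

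Methylation of the Tcf4 proximal DMR (SPF call) was 70.1%, 53.3% and 62.9% in mLN SPF libraries 1, 2 and 3, and 75.7% and 66.4% in mLN GF libraries 1 and 2. It was 25.2%, 20.04% and 33.9% in pLN SPF libraries 1, 2 and 3, and 32.4% and 17.2% in pLN GF libraries 1 and 2. Every mLN library was above every pLN library, by at least 19.4 points. As 88.8% of all SPF location DMRs were separated in this way, this does not set the DMR apart. In SPF mice the group means were 62.1% ± 8.39 for mLN and 26.4% ± 7.02 for pLN (SD, n = 3 each), and in GF mice 71.1% ± 6.61 and 24.8% ± 10.8 (SD, n = 2 each). The location difference was 35.7 points in SPF and 46.3 points in GF.

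For the 7 CpGs of the GF call, GF mice had 75.3% ± 15.3 for mLN and 29.7% ± 12.2 for pLN (SD, n = 2 each), a difference of 45.6 points, and SPF mice 65.9% ± 2.36 and 27.3% ± 10.3 (SD, n = 3 each). The nodes were separated by 25.3 points, a separation that 78.7% of all GF location DMRs showed. Within mLN GF the libraries were apart, with 86.1% in library 1 and 64.5% in library 2, the widest SD of any group in the 4 DMRs.

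The Tcf4 distal DMR had lower levels in both nodes. It had 44.0%, 34.8% and 44.1% in mLN SPF libraries 1, 2 and 3, and 47.1% and 36.0% in mLN GF libraries 1 and 2. In pLN it had 13.2%, 16.1% and 15.2% in SPF libraries 1, 2 and 3, and 21.9% and 24.1% in GF libraries 1 and 2. The nodes did not overlap, the gap being 10.8 points, a separation shared by 88.8% of all SPF location DMRs. The pLN GF libraries were both above all pLN SPF libraries. In SPF mice the group means were 41.0% ± 5.34 for mLN and 14.8% ± 1.49 for pLN (SD, n = 3 each), a difference of 26.2 points, and in GF mice 41.6% ± 7.85 and 23.0% ± 1.55 (SD, n = 2 each), a difference of 18.6 points.

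The proximal region was called in both conditions, so neither set of libraries was independent of its selection, and its differences of 46.3 points in GF (SPF call) and 38.6 points in SPF (GF call) are given as a description, with no test. The distal region was called in SPF only and could be tested in the 4 GF libraries. There it differed by 18.6 ± 5.14 points (SE, 95% interval 5.95 to 31.2, limma adjusted p = 0.0140), and 15.9% of the 806 SPF location DMRs differed by less. Of these 806 DMRs, 89.0% passed in the GF libraries. With the median instead of the mean over its CpGs, the difference in GF was 28.4 points and still passed. The exact two-sided permutation test gave p = 0.333, the smallest that 2 against 2 libraries allow.

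The distal result depended on single GF libraries. Without mLN GF library 1 the difference was 13.0 points (adjusted p = 0.0728), and without pLN GF library 1 it was 17.5 points (adjusted p = 0.0605). Without either of the other 2 GF libraries it still passed.

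All 10 CpGs of the proximal region were higher in mLN in SPF and in GF alike, but the region was called in both conditions. On the mean of 5 libraries per node, all 14 CpGs of the distal region were higher in mLN. Over all SPF location DMRs more methylated in mLN, 92.2% of CpGs were higher on this mean. The differences ranged from 28.8 to 56.5 points over the proximal CpGs and from 3.48 to 36.0 points over the distal CpGs. At 3 distal CpGs, numbers 1, 3 and 5, the direction was not shared by SPF and GF. No library overlapped between nodes at 4 proximal CpGs (3, 6, 8 and 9) and at 2 distal CpGs (6 and 11), against 37.4% over all SPF location DMRs more methylated in mLN.

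The largest proximal differences were at CpG 8, with 55.6% to 100% in mLN and 0% to 44.4% in pLN, and at CpG 9, with 71.4% to 100% in mLN and 18.2% to 50% in pLN. At CpG 1 of this region, mLN SPF library 2 had 0% while the other 4 mLN libraries had 66.7% to 80.0%. At CpG 10, pLN GF library 1 had 88.9%, above all mLN libraries, whereas the other 4 pLN libraries had 20% to 50%. Single libraries thus produced the overlap at these CpGs.

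In the distal region, CpG 11 was at 0% in 4 of 5 pLN libraries and at 9.09% in the other, and at 20% to 50% in mLN. CpG 14 was at 0% in all 3 pLN SPF libraries but at 50% and 20% in the pLN GF libraries. CpGs 3, 5 and 8 had low levels in both nodes, with means of 5.98%, 12.0% and 11.5% in mLN and 2.50%, 1.67% and 2.00% in pLN. CpG 1, at the 5′ end, was the most methylated, with 76.2% in mLN and 61.9% in pLN. In all, 10 of the 14 distal CpGs were below 20% in pLN and 4 in mLN, whereas of the 10 proximal CpGs 3 were below 20% in pLN and none in mLN.

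**Figure D3:**
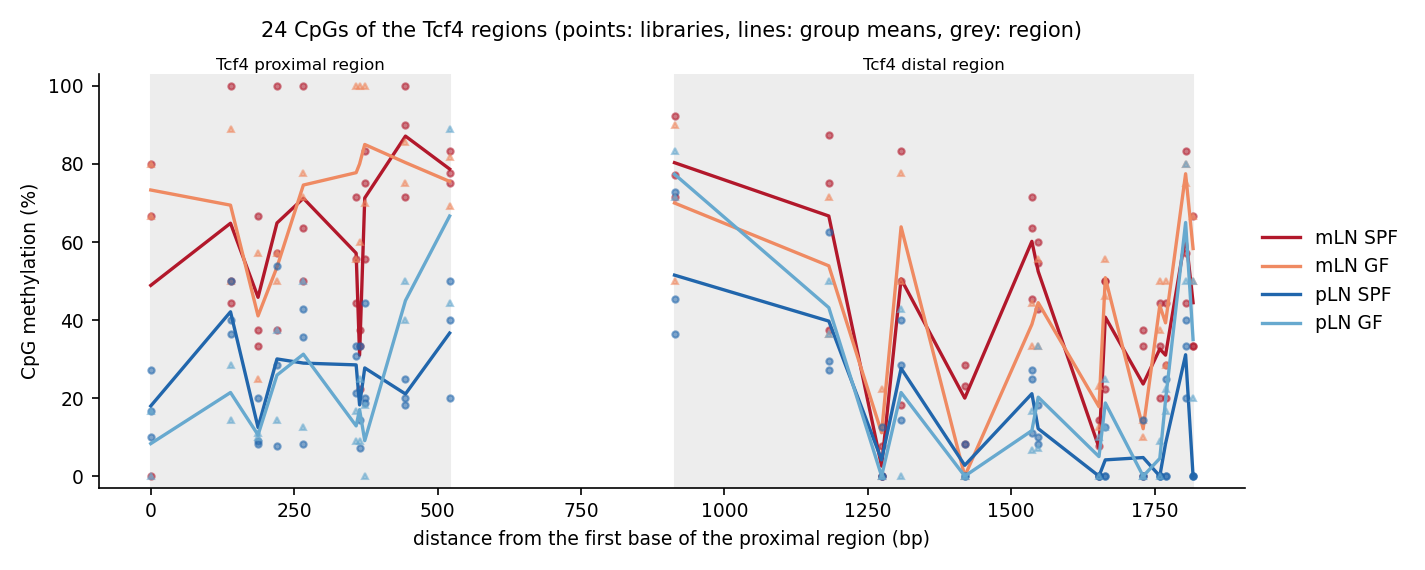
Methylation (%) of the 24 CpGs of the Tcf4 regions against the distance from the first base of the proximal region (bp), with the regions shaded in grey. Small points are libraries and lines connect the means of the 4 groups. The mLN means lie above the pLN means at most CpGs, and the distal region has deep minima shared by both nodes, such as CpG 3 with 5.98% in mLN and 2.50% in pLN.

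CpG by CpG in the 4 GF libraries, none of 14 distal CpGs passed the limma test, while 3 had an unadjusted p under 0.05. Over all CpGs of SPF location DMRs, 2489 of 15217 (16.4%) passed and 6377 had an unadjusted p under 0.05. The proximal region was also called in GF, so the GF values of its 10 CpGs are a description. CpGs 4 to 10 lay inside the GF call. CpG 1, outside it, was the only one past the threshold of the fit (65.0 ± 9.81 points, SE). As the calls were made on smoothed methylation, CpG 1 may still not be independent of the GF call, and nothing is read from this. The 7 CpGs of the GF call also lay in the SPF call, so their values in the 6 SPF libraries are a description. There 4 of the 7 were past the threshold of the fit, as were 37.7% of all CpGs of GF location DMRs, and nothing is read from this count, which fell to 2 without mLN SPF library 1 or 3 or without pLN SPF library 1 or 2. CpG 9 had the largest difference among them, 66.1 points.

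**Figure D4:**
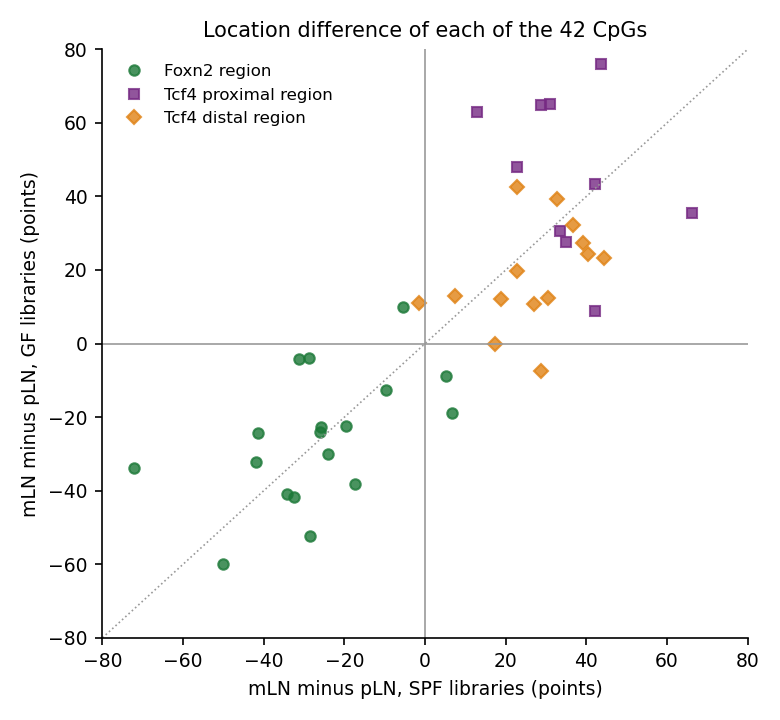
Location difference (mLN minus pLN, points) of each of the 42 CpGs in the SPF libraries (x axis) and in the GF libraries (y axis), with the line of equality dotted. At 36 of 42 CpGs the sign was that of their region in both conditions, 15 of 18 at Foxn2, 10 of 10 in the Tcf4 proximal and 11 of 14 in the Tcf4 distal region. All regions were called on their difference in SPF, and the Tcf4 proximal region also in GF. The counts thus largely follow from the selection and are a description.

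The housing comparison asked whether the microbial status of the mice was accompanied by a change at these regions. It took no part in their selection. In a limma fit with location and housing over all 1602 merged regions, the SPF minus GF difference was 0.73 ± 3.55 points (SE) at the Foxn2 region, with a 95% interval of -7.00 to 8.45. It was -3.70 ± 4.71 points (SE) at the Tcf4 proximal region, with an interval of -14.0 to 6.55, and -4.36 ± 3.41 points (SE) at the Tcf4 distal region, with an interval of -11.8 to 3.06. The adjusted p was 0.993 at Foxn2 and 0.991 at both Tcf4 regions. Of all merged regions 0 (0%) passed, while 72 had an unadjusted p under 0.05. Intervals of this width leave room for housing differences of several points at each region.

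Nor did the location difference itself differ detectably between SPF and GF mice. The interaction, the location difference in SPF minus that in GF, was -0.93 ± 7.31 points (SE, 95% interval -17.0 to 15.1) at Foxn2, -10.5 ± 9.23 points (SE, 95% interval -30.8 to 9.74) at the Tcf4 proximal region and 7.60 ± 6.64 points (SE, 95% interval -7.00 to 22.2) at the Tcf4 distal region. The adjusted p was 0.968, 0.732 and 0.731. No region of the 1602 passed (0%), while 141 had an unadjusted p under 0.05. The Foxn2 region and the Tcf4 distal region had been called in SPF only, which selects for a larger difference in SPF. Absence from the GF table thus did not amount to a detectable difference between the conditions at either.

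At single CpGs, no housing difference passed over the 23976 CpGs tested (0%), 1282 having an unadjusted p under 0.05. Among the 42 CpGs, 4 were in the latter set. At Foxn2 these were CpG 12 (-21.3 ± 6.94 points) and CpG 16 (-27.8 ± 8.73 points), and in the Tcf4 distal region CpG 13 (-24.9 ± 9.45 points) and CpG 14 (-24.4 ± 9.33 points), all with an adjusted p of 0.898. All 4 had lower methylation in SPF.

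The Tcf4 regions differed from the Foxn2 region in base composition. GC content was 38.2% in the proximal and 37.6% in the distal Tcf4 region, and 6.20% and 5.09% of the SPF location DMRs had a lower GC content. CpG density was 1.91 and 1.55 per 100 bp. Within 1 Mb on either side of the gene there were 8 further DMRs around Tcf4, assigned to Mir6356, 4930546C10Rik, Mir145b and Ccdc68, and 3 around Foxn2, assigned to Gtf2a1l and Fshr. All of these were more methylated in mLN, as were the Tcf4 DMRs, whereas the Foxn2 DMR had the opposite direction. Several of them were overlapping calls of the same stretch in the SPF and GF comparisons. Over all genes, 468 DMRs were higher and 329 lower in mLN in the SPF location comparison, and 602 and 680 in the GF one. So few stretches do not set the Foxn2 DMR apart.

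The genes that Tcf4 partners with or resembles were looked up in lists chosen with earlier results of these data known. Of 46 genes for E proteins, Id proteins and their bHLH partners, 9 were the nearest gene of a DMR, compared with 695 of all 21924 protein-coding genes (3.17%). With higher methylation in mLN, the nearest genes were Tcf4, Tcf21 and Hand1, bHLH factors of mesenchyme development, and Id2, an inhibitor of E proteins. With lower methylation in mLN, they were Twist1 and Twist2, bHLH factors of mesenchymal cells, and Ferd3l, Myf5 and Neurog1. The Id2 DMR lay 178260 bp and the Ferd3l DMR 208782 bp from the nearest transcription start site, so not all of these DMRs lay close to the gene. Among the DMRs of these genes, 14 were higher and 6 lower in mLN in the SPF location comparison, and in the GF location comparison 11 were higher and 8 lower, beside 468 higher and 329 lower DMRs in SPF and 602 and 680 in GF for all genes. Neither Tcf3 nor Tcf12, the other E proteins, was the nearest gene of a DMR.

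In the libraries not used for each call, 19 of the 20 SPF location DMRs and 18 of the 19 GF location DMRs of this list passed, 13 and 11 of them higher in mLN, beside 89.0% of all 806 and 82.4% of all 1293 DMRs of these tables. The exceptions were a DMR near Hand1, which had -7.65 points in GF, and the DMR near Myf5. The differences in GF were 26.6 points at Id2 and 49.96 points at the largest of the Tcf21 DMRs, and -56.8 points at the largest of the Twist1 DMRs, compared with 46.3 and 18.6 points at Tcf4. The median size over the list was 36.6 points in the SPF table and 30.9 points in the GF table, beside 30.7 and 26.4 points over all DMRs, with most of these DMRs at Tcf21, Hand1 and Twist1. Several of these regions, among them the Tcf4 proximal region and regions at Tcf21, Hand1 and Twist1, were called in both tables. They were then not independent of the libraries tested, so nothing is read from the counts that passed.

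Of 44 forkhead genes, 3 were the nearest gene of a DMR, beside the same 3.17% of all protein-coding genes. The DMR assigned to Foxn2 was lower in mLN, and those assigned to Foxp1 and Foxf2 were higher. The Foxp1 DMRs lay 99437 and 98642 bp from the nearest transcription start site. The 3 SPF location DMRs and 1 GF location DMR of these genes all passed in the libraries not used for the call. So did 89.0% of all SPF location DMRs and 82.4% of all GF location DMRs, so this does not set these genes apart. The differences were -25.6 points at Foxn2, 21.1 and 24.1 points at Foxp1 and 16.3 points at Foxf2. Of the 4 Tcf/Lef factors of Wnt signalling, Lef1 and Tcf7l1 had 3 DMRs, all in the GF location table. None passed in the SPF libraries, beside 82.4% of all GF location DMRs. Their differences there were 8.78, -9.40 and 3.43 points.

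**Figure D5:**
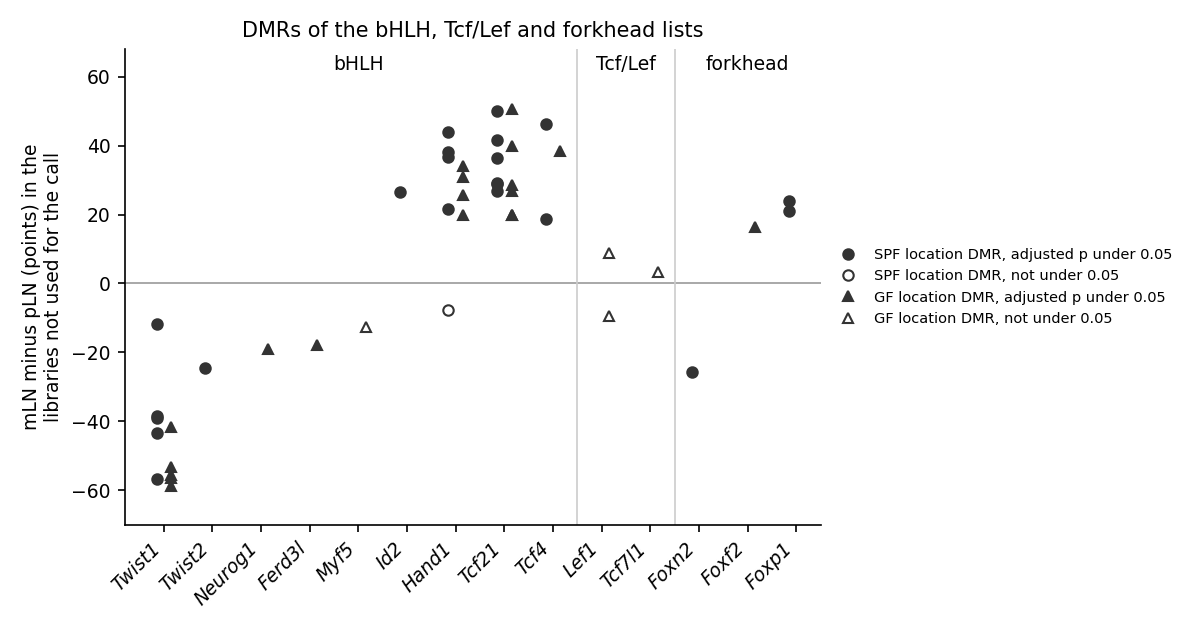
Location difference (mLN minus pLN, points) of each DMR of the bHLH, Tcf/Lef and forkhead genes in the libraries not used for its call. Filled symbols passed the limma test at an adjusted p of 0.05, and open symbols did not. Regions called in both housing conditions, such as the Tcf4 proximal region, were not independent of the libraries tested. The Tcf4 DMRs lie at 18.6 to 46.3 points, and Foxn2 lies at -25.6 points, below Foxf2 and Foxp1.

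Regions with the most similar levels in the 4 groups were ranked by the Euclidean distance between the 4 group means, among 1311 other merged regions with at least 5 CpGs. Nearest to Foxn2 were regions at Sdk2 (3.07 points), Mir8104, Efna5, Gm11680 and Actn2, and 73 regions lay within 10 points. Nearest to the Tcf4 proximal region were Gm15473 (4.64 points), Mir6539, Gm5342, Gm24117 and Prdm16, with 32 regions within 10 points. The Tcf4 distal region had 9 regions within 10 points, among them Map3k7 (6.21 points, the nearest), Ppp1r2-ps3, Emx2 and Thbs2. The pattern of each region was thus shared by other regions of the series, and most rarely that of the distal one.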

How the data were processed

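The values are whole-genome bisulfite sequencing data of 10 libraries, grouped by the sample titles. According to the study's methods and the labels, the authors trimmed the reads (cutadapt 1.4), aligned them to GRCm38 with BSMAP 2.4.3, removed duplicates, restricted CpGs by coverage, and called DMRs on smoothed methylation with BSmooth. GRCm38 derives from C57BL/6J, whereas the mice were BALB/c. Methylation in the deposited CpG table is unsmoothed, as a fraction of reads between 0 and 1, and was used here in percent. The deposited DMR tables also hold the authors' differences, area statistics and directions, which were not used. Their pooled group means served only to give the direction of a call and the alternative with a minimum difference. The authors' tables held at least 3 CpGs per DMR.

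Repeated CpG rows were removed, all 24182 positions were checked to be CpGs in GRCm38, and DMRs overlapping by 1 bp were merged. A region's value is the mean over its CpGs in a library. Tests used limma 3.58.1 (R 4.3.3) with Benjamini-Hochberg adjustment over all DMRs, regions or CpGs fitted, at 0.05. CpG fits required at least 2 values in each group. The script was tested on simulated data. Genes were named by rule: Tcf4, Foxn2, the lists of bHLH, forkhead and Tcf/Lef genes, and the 5 most similar regions, of which 1 is not reported here. Members and lists were chosen with earlier results of these data known. Sequences and annotation came from the GRCm38 reference and GENCODE. Alternatives covered CpG selection, median, scale, region size and definition, minimum difference, variance model, replicate block, subsets of samples and leaving out each library.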

Additional observations from a re-analysis of the deposited data

How the results depend on the processing

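The location differences of the 4 DMRs in the housing condition not used for their call kept their direction under all alternatives run, and of the 2 DMRs tested in libraries independent of their call, Foxn2 kept its call under all in which it could be tested. The Tcf4 distal DMR lost its call without single libraries, with 13.0 points (adjusted p = 0.0728) without mLN GF library 1 and 17.5 points (adjusted p = 0.0605) without pLN GF library 1. Leaving out each library gave -33.4 to -17.8 points at Foxn2, 38.6 to 53.9 points at the Tcf4 proximal DMR (SPF call), 34.6 to 44.4 points at the GF call and 13.0 to 24.1 points at the distal DMR. Where this left 1 library in a group, that library was assumed to vary like the others. With a minimum difference of 0.35, no SPF location DMR of these genes remained, and only the GF call at Tcf4 could be tested. Of the 42 CpGs, 2 passed in the GF libraries and 0 when any GF library was left out. These 2 were Foxn2 CpG 7 and Tcf4 proximal CpG 1. The 42 include the 10 CpGs of the Tcf4 proximal region, which was also called in GF. Its CpG 1 may thus not be independent of the GF call, and nothing is read from it. Of all CpGs of SPF location DMRs, 16.4% passed in the GF libraries. Of the 7 CpGs of the GF call, which were not independent of the SPF call, 4 were past the threshold in the SPF libraries. This compares with 37.7% of all CpGs of GF location DMRs. The count was 2 to 4 when 1 SPF library was left out, and nothing is read from it. With the median over CpGs, the difference in the calling groups was -38.5 points at Foxn2 and 30.3 points at the distal DMR, and in the GF libraries -39.0 and 28.4 points. The cause of this shift was not tested. No housing or interaction call appeared under any alternative.

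Same-numbered mLN and pLN libraries did not deviate together over the merged regions (correlations of -0.04 to 0.03 in SPF and -0.03 in GF). With 2 GF libraries per node, all GF correlations have the same size by construction. These values cannot show whether same-numbered libraries shared animals, which the labels do not state. With the replicate block, the Foxn2 DMR and the Tcf4 distal DMR kept their calls in the GF libraries, with -25.6 and 18.6 points. The Tcf4 proximal DMR had 46.3 points in GF (SPF call) and 38.6 points in SPF (GF call). These are given as a description, because it was called in both conditions. The housing difference with the block was 2.28 points at Foxn2, -5.79 at the Tcf4 proximal and -5.24 at the distal region. The interaction with the block was -0.93, -10.5 and 7.60 points.

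Groups of 2 or 3 libraries limit what can be seen here. The read depth behind each value was not used, intervals of housing effects span several points, and the median SD of a single CpG within a group was 10.0, 13.6 and 9.24 points in the Foxn2, Tcf4 proximal and Tcf4 distal regions. The excluded GF replicates were not analysed here, so GF spreads are those of the libraries kept. Groups of 2 or 3 libraries were not tested for outliers.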
